A study of Mus musculus with 32 samples.

Results

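Colony stimulating factors keep macrophages and microglia alive, and the drug given to the mice described here, BLZ945, blocks the receptor for one of them. The 8 genes described are the drug target Csf1r, its ligands Csf1 and Il34, and the genes of other colony stimulating factor receptors through which myeloid cells can be kept alive: the cytokine gene Csf2, the receptor chains Csf2ra, Csf2rb and Csf2rb2, and Csf3r. They were chosen by symbol, as the target, its ligands and the alternative survival receptors, from a table of 23337 genes. All 8 were in the table.

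RNA was sequenced from cells sorted out of mouse gliomas, which were induced in XFM mice at an age of 5 to 6 weeks by placing DF-1 cells, a chicken fibroblast line, carrying PDGFB in the brain. Dosing with BLZ945 or vehicle began at a tumour volume of 20 to 40 mm3 and went on daily until symptoms or an age of 26 weeks. After papain digestion, PDGFRA+ cells were sorted as tumour cells (TC) and CD11b+ Gr1- cells as the macrophages and microglia of the tumour (TAM). The Rebound group held 5 TAM and 5 TC libraries from mice whose tumours the labels call rebound tumours. The Endpoint group held 6 TAM and 6 TC libraries from tumours the labels call dormant. The Vehicle group held 5 TAM and 5 TC libraries from vehicle-treated mice. All groups share the XFM background and the PDGFB-driven tumour, and since the labels name BLZ945 as the agent for all 32 libraries, those of Vehicle mice too, treatment is taken here from the stage. The series addresses resistance to CSF-1R inhibition. Each library is from a separate mouse within its group, and both sorts were sequenced from 15 of the 17 mice. The Gr1- gate is meant to leave out neutrophils and other cells that bear Gr1, though neutrophil markers were detected in each TAM group.

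CSF-1R is a receptor tyrosine kinase of macrophages and microglia, and its binding by CSF-1 or IL-34 is needed for microglia to survive; in the healthy mouse brain IL-34 comes mainly from neurons and CSF-1 mainly from glia. The GM-CSF receptor, which binds the product of Csf2, pairs a cytokine-specific alpha chain (Csf2ra) with a beta chain (Csf2rb) that the IL-3 and IL-5 receptors share, and signals through JAK2 and STAT5. Mice carry a close copy of the beta chain gene, Csf2rb2, whose product serves the IL-3 receptor, and Csf3r encodes the receptor for G-CSF, the growth factor of neutrophils.

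Csf2rb and Csf2rb2 lie beside each other on chromosome 15 on opposite strands, and their likeness bears on every value given for them. In GENCODE M21 (GRCm38, mm10) Csf2rb spans chr15:78325752-78353847 on the plus strand and Csf2rb2 chr15:78282507-78305721 on the minus strand. Their coding sequences were identical at 2503 of 2628 aligned positions (95.2%). Of the 50-base windows of the Csf2rb coding sequence, 691 of 2639 (26.2%) also occurred in Csf2rb2, and 687 of 2585 (26.6%) the other way round. Reads were 50 bases long, so counts of the 2 genes are uncertain to the extent that the counting could split or drop such reads. The 60-base stretch in which the genes differ most, chr15:78338893-78338952 (plus strand) in Csf2rb and chr15:78294379-78294438 (minus strand) in Csf2rb2, shows where reads can be told apart, with capitals at the 13 positions that differ.
Csf2rb: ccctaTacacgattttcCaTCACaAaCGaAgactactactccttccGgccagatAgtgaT
Csf2rb2: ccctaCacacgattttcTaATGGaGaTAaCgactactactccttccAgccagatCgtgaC
The longest shared run, 242 bases at coding positions 2083 to 2324 of both genes, has no differing base, and a read inside it fits either gene. It lies at chr15:78348577-78348818 (plus strand) in Csf2rb and chr15:78284630-78284871 (minus strand) in Csf2rb2.
Csf2rb and Csf2rb2: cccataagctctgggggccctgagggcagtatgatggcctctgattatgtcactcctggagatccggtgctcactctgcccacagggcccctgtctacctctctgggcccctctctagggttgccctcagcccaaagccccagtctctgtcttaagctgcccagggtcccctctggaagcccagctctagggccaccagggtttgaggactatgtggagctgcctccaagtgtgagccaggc

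The total was 15352174 to 19561440 counts in TAM Rebound, 9543888 to 15789460 counts in TAM Endpoint and 25556830 to 30383148 counts in TAM Vehicle libraries. It was 10501264 to 16460126 counts in TC Rebound, 4180176 to 14029216 counts in TC Endpoint and 13126801 to 22989777 counts in TC Vehicle libraries. All 22 BLZ945 libraries hold even counts only, whereas Vehicle libraries hold odd and even counts, and this difference between the files cannot be told apart from treatment. All 16 myeloid markers had counts in every group, and their summed level was 34342.5 to 106930.1 CPM (counts scaled to the same effective library total) in TAM libraries and 109.2 to 11099.9 CPM in TC libraries. The 12 tumour cell markers summed to 34.1 to 290.4 CPM in TAM libraries. In TC libraries they summed to 1933.3 to 5987.8 CPM in Rebound, 295.2 to 1950.2 CPM in Endpoint and 2235.3 to 6801.8 CPM in Vehicle. The median was lowest in TC Endpoint libraries (427.4 CPM, against 5100.3 CPM in Rebound and 4374.5 CPM in Vehicle), where choroid plexus markers summed to 5196.4 to 184782.3 CPM. T and NK cell markers exceeded 50 CPM in 3 TAM Rebound libraries (49041, 49059 and 49849), 4 TC Endpoint libraries (49823, 49825, 49830 and 49831) and 1 TC Rebound library (49827). TC Rebound 49827 stood apart from the other TC Rebound libraries, with 3374.1 CPM of T and NK, 2708.2 CPM of myeloid and 15053.2 CPM of myelinating oligodendrocyte markers. Myelinating oligodendrocyte markers summed to 18372.1 to 28996.2 CPM in TC Endpoint and 2506 to 15353.8 CPM in TC Vehicle libraries. T and NK cell markers summed to 12.7 to 5393 CPM in TC Endpoint and 6.95 to 12.9 CPM in TC Vehicle libraries. CPM of the 8 genes are scaled within each sort, and marker sums over both sorts together. In these bulk samples, fewer cells of a type and less RNA per cell cannot be told apart.

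Among TAM libraries Csf1, Csf1r, Csf2ra, Csf2rb and Csf2rb2 changed with stage, in different directions, while Csf3r and Il34 passed in no stage comparison. Of the 7 genes with enough counts to test (all but Csf2), 5 passed an adjusted p of 0.05 in Endpoint against Vehicle, 1 higher and 4 lower, where 33.0% of all genes tested passed (13.7% higher and 19.3% lower). In Rebound against Vehicle 2 passed, 1 higher and 1 lower, against 14.7% of all genes (7% higher and 7.73% lower). In Rebound against Endpoint 4 passed, 3 higher and 1 lower, against 17.6% of all genes (11.7% higher and 5.90% lower). Adjusted p-values are from edgeR's quasi-likelihood test with Benjamini-Hochberg adjustment over all genes tested. The 3 comparisons share libraries, so they are not independent of each other.

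**Figure D1:**
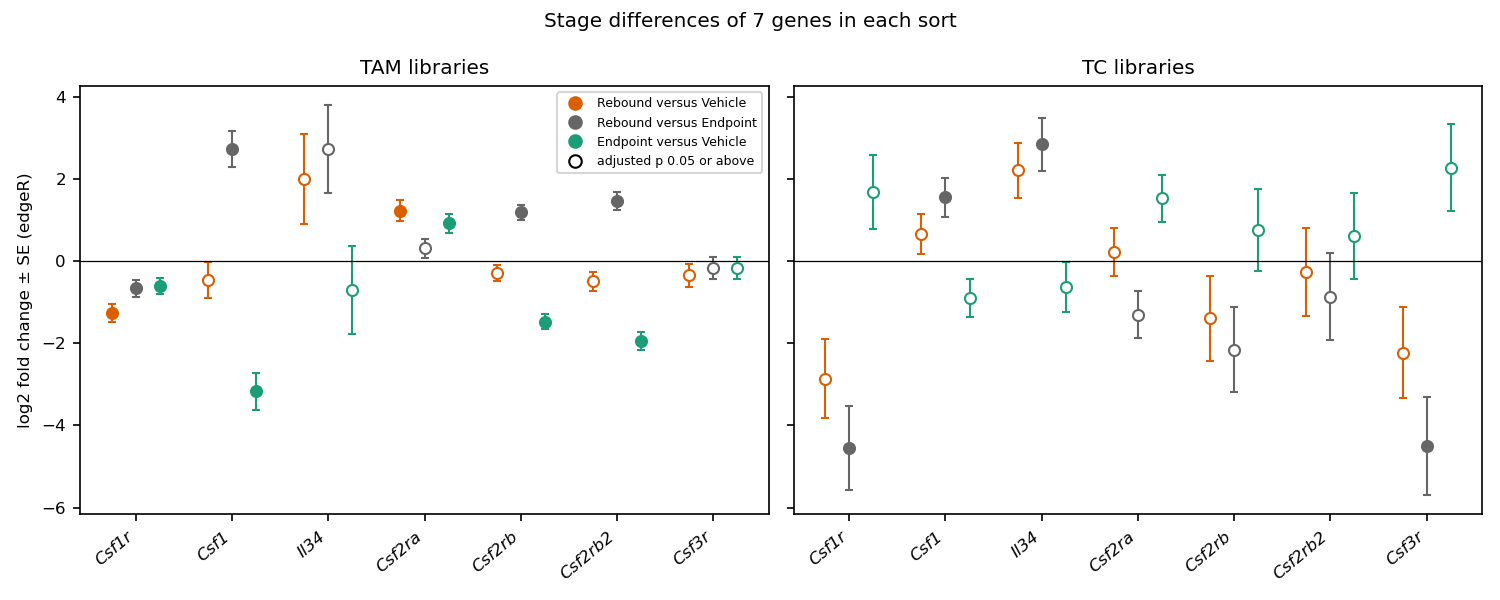
Log2 fold change with its standard error (edgeR) for 7 genes in TAM libraries (left) and TC libraries (right). Colours mark Rebound versus Vehicle, Rebound versus Endpoint and Endpoint versus Vehicle, and filled points have an adjusted p under 0.05. In TAM libraries Csf1, Csf2rb and Csf2rb2 lie below 0 in Endpoint versus Vehicle and above 0 in Rebound versus Endpoint, while Csf2ra lies above 0 in both comparisons with Vehicle.

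Csf1r (chr18:61100598-61132149, plus strand, protein coding) was the most abundant of the 8 genes per length in TAM libraries, and its level was lower in both BLZ945 groups. The locus overlaps Mir6983 and, on the minus strand, the protein-coding gene Hmgxb3, and the kit does not mark strand. In TAM Rebound libraries Csf1r had 4884.7, 2913.6, 5195.4, 4875.6 and 4730.8 CPM. In TAM Endpoint libraries it had a lowest value of 6347.0, a median of 6966.2 and a highest value of 8228.1 CPM. In TAM Vehicle libraries it had 17410.6, 10302.6, 9539.8, 8107.8 and 9073.4 CPM. Every Rebound library lay below every Endpoint and Vehicle library, and 5 of 6 Endpoint libraries lay below the lowest Vehicle library.

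Csf1r fell in TAM Rebound relative to Vehicle, with means of 4520 ± 913.9 and 10886.9 ± 3732.5 CPM (SD, n = 5 each; log2 difference -1.27, SE 0.216, edgeR adjusted p = 0.00136). It also fell in Rebound relative to Endpoint (log2 difference -0.66, SE 0.206, edgeR adjusted p = 0.0318) and in Endpoint relative to Vehicle (-0.61, SE 0.203, edgeR adjusted p = 0.0274). The 2 smaller differences were close to the threshold and lost their calls when single libraries were left out. The difference of Endpoint against Vehicle was -0.36 without TAM Vehicle 54359 (edgeR adjusted p = 0.119) and -0.60, -0.58, -0.60 and -0.57 without TAM Endpoint 49823, 49825, 49831 and 49843 (edgeR adjusted p = 0.0504, 0.0563, 0.0503 and 0.0521). That of Rebound against Endpoint was -0.54 without TAM Rebound 49059 (edgeR adjusted p = 0.085) and -0.67, -0.62, -0.67 and -0.63 without TAM Endpoint 49823, 49830, 49831 and 49845 (edgeR adjusted p = 0.0501, 0.0633, 0.051 and 0.0613). Without the 3 TAM Rebound libraries with T and NK cell markers it was -0.50 (edgeR adjusted p = 0.352), a choice made after seeing the data. Over the 16 TAM libraries the genes most like Csf1r were the adhesion receptor gene Gpr56 (Pearson r 0.959), Pld4 (0.957), 1500010J02Rik (0.944), the transporter gene Slco2b1 (0.936) and Zfyve19 (0.927).

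The summed level of the 16 myeloid markers was also lower in both BLZ945 groups of TAM libraries than in Vehicle. Its median was higher in Rebound than in Endpoint, but the Rebound range enclosed that of Endpoint. The sum was 34342.5 to 59620.5 CPM in Rebound (median 55195.6), 43354.8 to 50081.9 CPM in Endpoint (45006.1) and 61350.1 to 106930.1 CPM in Vehicle (70176.6), and its part in the Csf1r result was not tested. Per 100 CPM of these markers, Csf1r had a median of 10.4 CPM in Rebound (range 9.28 to 14.7), 18.1 CPM in Endpoint (14.1 to 21.7) and 16 CPM in Vehicle (15.5 to 21.4). On that measure, which was added after the values were seen and was not tested, the Rebound and Vehicle ranges did not overlap, whereas those of Endpoint and Vehicle did.

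**Figure D2:**
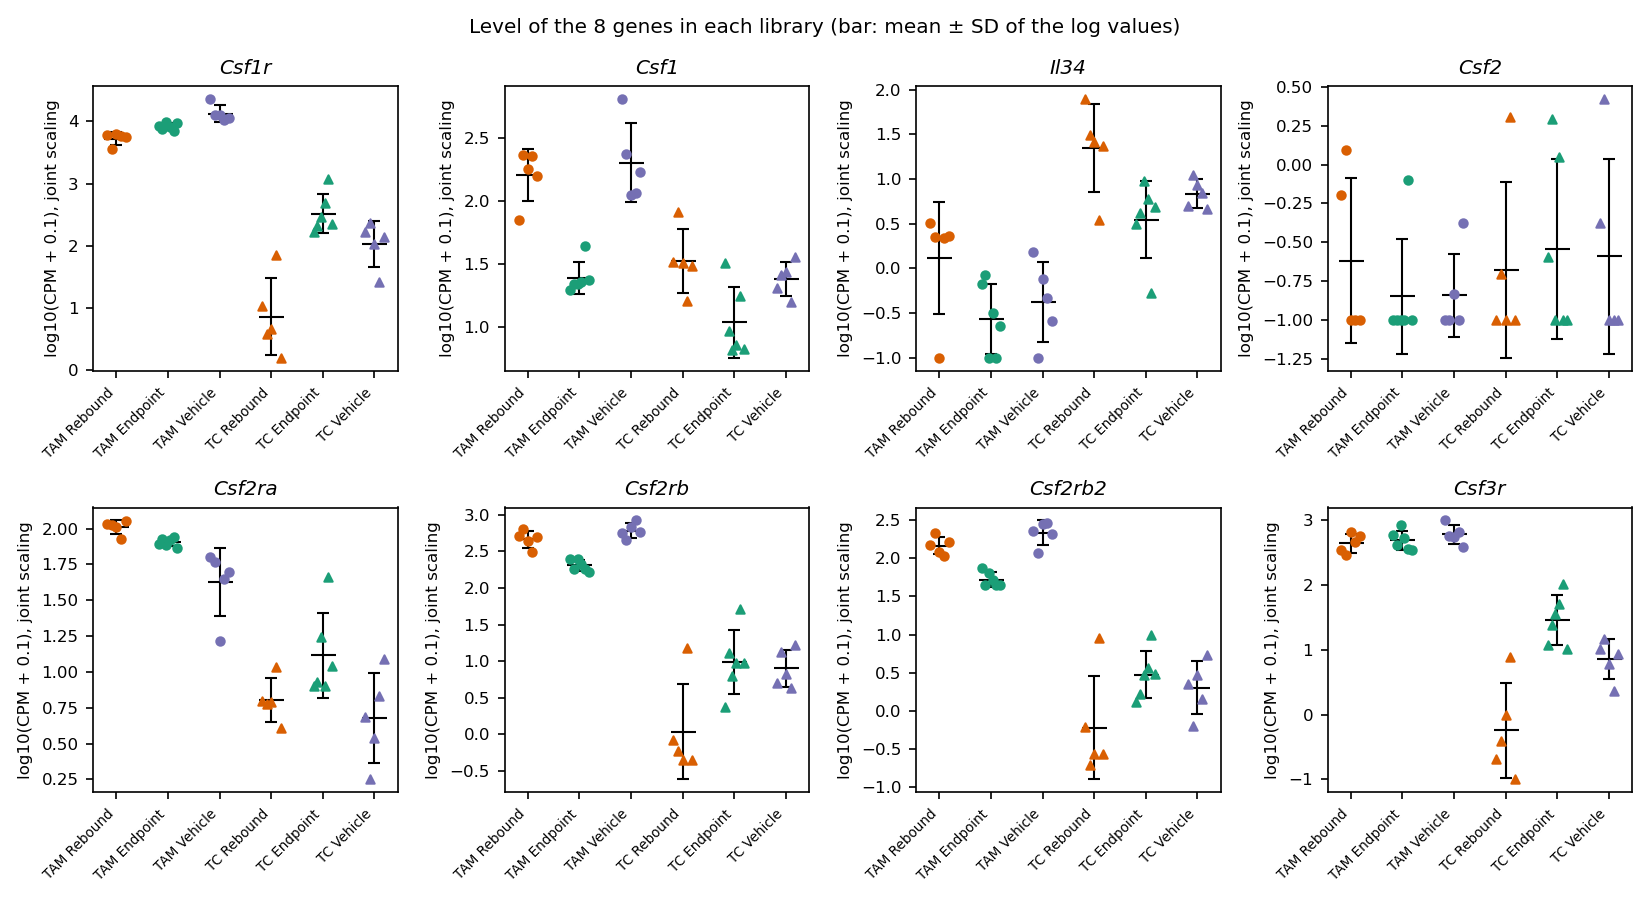
Level of each of the 8 genes in every library, as log10 of CPM + 0.1 with both sorts scaled together. Columns run TAM Rebound, Endpoint and Vehicle (circles), then TC Rebound, Endpoint and Vehicle (triangles); bars give the mean ± SD of the log values. Csf1r, Csf2ra, Csf2rb, Csf2rb2 and Csf3r lie higher in TAM than in TC libraries, Il34 lies lower, and Csf2 is at or near the bottom of the scale throughout.

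Csf1, the ligand found in most tissues (chr3:107741048-107760469, minus strand, protein coding), was low in TAM Endpoint libraries alone among the 3 TAM groups. It had 57.8, 188.0, 149.9, 191.4 and 134.9 CPM in TAM Rebound libraries. It had 16.1 to 39.1 CPM with a median of 19.1 CPM in TAM Endpoint libraries. In TAM Vehicle libraries it had 487.4, 189.7, 84.8, 90.0 and 136.2 CPM. All 6 Endpoint libraries lay below all Rebound and Vehicle libraries, while Rebound and Vehicle overlapped.

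Csf1 fell in TAM Endpoint to a mean of 21.9 ± 8.53 CPM, against 197.6 ± 167.4 CPM in TAM Vehicle (SD, n = 6 and 5; log2 difference -3.17, SE 0.444, edgeR adjusted p = 7.61e-05), a 9.01-fold lower level. It rose in Rebound relative to Endpoint by 2.72 on the log2 scale (6.58-fold, SE 0.437, edgeR adjusted p = 0.000662). Rebound against Vehicle gave -0.45 (SE 0.437, edgeR adjusted p = 0.522). Without TAM Vehicle 54359, the library with the highest value, that difference was 0.20. The 5 genes whose levels followed Csf1 most closely over the 16 TAM libraries were Myo1e, an unconventional myosin (Pearson r of log2 CPM 0.964), Itpkb, an inositol trisphosphate kinase (0.962), Bcl2l1, which encodes the survival protein Bcl-xL (0.95), Lasp1 (0.946) and Nek6 (0.944). The libraries of a stage share treatment and depth, so these values only describe likeness.

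In TC libraries Csf1 was lower than in TAM libraries at Rebound and in Vehicle, and it also varied with stage. It had 39.4, 99.4, 38.9, 19.8 and 37.1 CPM in TC Rebound libraries. It had 7.71 to 39.1 CPM with a median of 9.92 CPM in TC Endpoint libraries, and 25, 30.4, 32.3, 18.7 and 43.0 CPM in TC Vehicle libraries. Endpoint libraries 49823 and 49843 lay within the Rebound and Vehicle ranges, and the other 4 lay below both.

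Csf1 rose in TC Rebound relative to Endpoint, by 1.55 on the log2 scale (SE 0.469, edgeR adjusted p = 0.0242). The value was 1.08 without TC Rebound 49059 and 1.42 without TC Endpoint 49831 (edgeR adjusted p = 0.106 and 0.0512). Endpoint against Vehicle gave -0.90 (SE 0.466, edgeR adjusted p = 0.159), and -1.39 without TC Endpoint 49823 (edgeR adjusted p = 0.0276). Tumour cell markers had their lowest median in TC Endpoint libraries, and their part in these differences was not tested. The genes most like Csf1 over the 16 TC libraries were the sodium-calcium exchanger gene Slc8a2 (Pearson r 0.894), the cell division genes Depdc1a (0.883), Kif11 (0.868) and Aurkb (0.866), and C330027C09Rik (0.862).

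Il34, the other ligand of CSF-1R (chr8:110741829-110805924, minus strand, protein coding), was expressed mainly in TC libraries and was highest in most Rebound tumours. Its locus overlaps the antisense genes Gm15894 and Gm15895, whose reads cannot be told apart from its own because the kit does not mark strand. In TC Rebound libraries it had 94.8, 38.0, 32, 4.22 and 28.7 CPM. TC Endpoint libraries had 0.53 to 11.3 CPM with a median of 5.24 CPM, and TC Vehicle libraries had 5.95, 13.3, 10.1, 8.28 and 5.39 CPM. Of 5 Rebound libraries, 4 lay above every Endpoint and Vehicle library, and the fifth, 49827, lay below every Vehicle library.

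Il34 rose in TC Rebound relative to Endpoint, with means of 39.5 ± 33.4 and 5.52 ± 3.58 CPM (SD, n = 5 and 6; log2 difference 2.84, SE 0.643, edgeR adjusted p = 0.00582). Against Vehicle, which averaged 8.6 ± 3.22 CPM, the Rebound difference was 2.20 (SE 0.667, edgeR adjusted p = 0.173). Without TC Rebound 49827 it was 2.49 (edgeR adjusted p = 0.0212), and DESeq2 gave 2.22 on all libraries (DESeq2 adjusted p = 0.0221). Endpoint against Vehicle gave -0.63 (SE 0.618, edgeR adjusted p = 0.467).

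Markers of pericytes and fibroblasts were high in the same TC Rebound libraries as Il34. Their 7 genes summed to 6592.1, 2682.8, 1623.8, 93.5 and 854 CPM in the TC Rebound libraries, in the order given for Il34 above, with the lowest sum again in 49827. The sums were 227.1 to 841.2 CPM in TC Endpoint and 10.7 to 127.5 CPM in TC Vehicle. Il34 averaged 5.52 and 8.6 CPM in these 2 groups, a difference that did not pass. All 7 markers had counts in each group, and their part in the Il34 result was not tested. Neuron markers summed to 39.9 to 338.7 CPM in Rebound, 335.9 to 446.5 CPM in Endpoint and 96.2 to 288.9 CPM in Vehicle. The genes most like Il34 over the 16 TC libraries were the collagen gene Col5a1 (Pearson r 0.906), the matrix protease gene Adamts4 (0.89), Casp12 (0.876), Dennd1a (0.874) and the collagen gene Col7a1 (0.86).

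In TAM libraries Il34 was near the limit of detection. It had 2.52, 1.76, 0, 1.8 and 1.89 CPM in TAM Rebound libraries, from 46, 30, 0, 28 and 34 counts. It had 0 to 10 counts in TAM Endpoint libraries and 0 to 21 counts in TAM Vehicle libraries. A library at 0 allows up to 3 counts in Vehicle and, since counts there come in steps of 2, up to 6 counts in BLZ945 libraries. Rebound against Endpoint gave 2.71 (SE 1.07, edgeR adjusted p = 0.0881), which was 3.01 without TAM Rebound 49827 (edgeR adjusted p = 0.0408), and Rebound against Vehicle gave 2.00 (SE 1.09, edgeR adjusted p = 0.228).

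Csf2, the gene of GM-CSF (chr11:54247271-54249667, minus strand, protein coding, overlapped by the antisense gene Gm12223), was hardly detected in either sort. The TAM Rebound libraries held 8, 16, 0, 0 and 0 counts, the TAM Endpoint libraries 8 counts in 49843 and 0 in the other 5, and the TAM Vehicle libraries 0, 0, 1, 0 and 6 counts. The TC Rebound libraries held 0, 2, 0, 26 and 0 counts, the TC Endpoint libraries 2, 24, 0, 8, 0 and 0, and the TC Vehicle libraries 6, 38, 0, 0 and 0. No group had counts in all of its libraries. Csf2 had too few counts for the stage comparisons, and no stage difference was detectable at this depth.

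The GM-CSF receptor chains moved apart in TAM libraries: the alpha chain was higher in both BLZ945 groups, and the beta chains were lower at Endpoint. Csf2ra (chr19:61223957-61228429, minus strand, protein coding) had 87.6, 86.0, 86.2, 71.8 and 95.9 CPM in TAM Rebound libraries. It had 61.4 to 77.7 CPM with a median of 68.4 CPM in TAM Endpoint libraries. It had 48.0, 47.1, 12.5, 34.7 and 40.4 CPM in TAM Vehicle libraries. All 11 BLZ945 libraries lay above all Vehicle libraries.

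Csf2ra rose in TAM Rebound relative to Vehicle, by 1.23 on the log2 scale (SE 0.246, edgeR adjusted p = 0.00395). It rose in TAM Endpoint relative to Vehicle by 0.91 (SE 0.237, edgeR adjusted p = 0.00626). Rebound against Endpoint gave 0.31 (SE 0.232, edgeR adjusted p = 0.381). Without the 3 TAM Rebound libraries with T and NK cell markers, the Rebound difference from Vehicle was 1.11 (edgeR adjusted p = 0.0702). The summed myeloid markers were lower in both BLZ945 groups than in Vehicle, and their part in the Csf2ra result was not tested. Per 100 CPM of them Csf2ra had a median of 0.188 CPM in Rebound (0.152 to 0.307), 0.172 CPM in Endpoint (0.166 to 0.187) and 0.067 CPM in Vehicle (0.0265 to 0.0712). This measure was added after the values were seen and was not tested, and a lower marker sum by itself raises it.

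Csf2rb had 420.3, 512.4, 364.8, 262.8 and 430.4 CPM in TAM Rebound libraries. It had 138.5 to 210.1 CPM with a median of 171.6 CPM in TAM Endpoint libraries, and 424.4, 364.6, 520.6, 654.6 and 476.6 CPM in TAM Vehicle libraries. Every Endpoint library lay below every Rebound and Vehicle library, and Rebound and Vehicle overlapped. Csf2rb fell in Endpoint relative to Vehicle by 1.48 on the log2 scale (SE 0.186, edgeR adjusted p = 1.86e-05). It rose in Rebound relative to Endpoint by 1.18 (SE 0.186, edgeR adjusted p = 0.000392). Rebound against Vehicle gave -0.29 (SE 0.194, edgeR adjusted p = 0.328).

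Csf2rb2 followed the same order. It had 120.1, 174.6, 102.3, 91.7 and 139.4 CPM in TAM Rebound libraries. It had 37.1 to 61.2 CPM with a median of 41.7 CPM in TAM Endpoint libraries, and 172.8, 94.2, 218.0, 228.6 and 169.7 CPM in TAM Vehicle libraries. The Endpoint libraries again lay below all others. Csf2rb2 fell in Endpoint relative to Vehicle by 1.95 on the log2 scale (SE 0.223, edgeR adjusted p = 7.82e-06) and rose in Rebound relative to Endpoint by 1.46 (SE 0.22, edgeR adjusted p = 0.000304). Rebound against Vehicle gave -0.49 (SE 0.229, edgeR adjusted p = 0.156), and -0.66 without TAM Vehicle 54363 (edgeR adjusted p = 0.0464).

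Per 100 CPM of myeloid markers the beta chain genes were less clearly apart. Csf2rb had a median of 0.844 CPM in Rebound (0.558 to 1.83), 0.414 CPM in Endpoint (0.361 to 0.576) and 0.84 CPM in Vehicle (0.521 to 1.26), and the Endpoint range overlapped both others. Csf2rb2 had a median of 0.274 CPM in Rebound (0.195 to 0.624), 0.102 CPM in Endpoint (0.0879 to 0.17) and 0.299 CPM in Vehicle (0.142 to 0.463), and the Endpoint range overlapped that of Vehicle only. Markers of monocytes, dendritic cells and B cells also had their lowest medians in TAM Endpoint libraries. The same held for neutrophil, endothelial, tumour cell, and pericyte and fibroblast markers. It did not hold for T and NK cell, neuron, astrocyte, myelinating oligodendrocyte or choroid plexus markers. The 6 monocyte markers summed to 119.9 to 1082.1 CPM in TAM Rebound (median 396.4), 17.7 to 254.7 CPM in TAM Endpoint (44.1) and 94.5 to 1475.2 CPM in TAM Vehicle (261.2). The 7 dendritic cell markers summed to 53.6 to 547.1 CPM in Rebound (median 86.6), 32.1 to 68.4 CPM in Endpoint (47.4) and 89.3 to 167 CPM in Vehicle (104.8). The 6 B cell markers summed to 199.3 to 381.1 CPM in Rebound (median 246), 72.5 to 135.2 CPM in Endpoint (92.8) and 108.3 to 382.8 CPM in Vehicle (126.7). All markers of the monocyte, dendritic cell and B cell lists had counts in each TAM group. The part of any of these cell types in the receptor chain and Csf1 results was not tested.

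Counts of Csf2rb were 3.19 ± 0.324 times those of Csf2rb2 in TAM Rebound, 3.87 ± 0.283 times in TAM Endpoint and 2.88 ± 0.592 times in TAM Vehicle (SD, n = 5, 6 and 5). Over the 16 TAM libraries the gene most like Csf2rb was Csf2rb2 (Pearson r 0.982), which shares identical sequence with it. Next came the glycogen-targeting phosphatase subunit gene Ppp1r3b (0.968), the vitamin D receptor gene Vdr (0.967), 1600014C10Rik (0.948) and B430306N03Rik (0.948). The summed CPM of both beta chain genes per length, divided by that of Csf2ra, was 2.71 ± 0.525 in TAM Rebound (range 2.22 to 3.58). It was 1.42 ± 0.307 in TAM Endpoint (1.13 to 1.82) and 11.1 ± 9.28 in TAM Vehicle (4.26 to 27). This ratio and that of the beta chain genes were added after the values were seen and were not tested. The beta chain sum includes Csf2rb2, whose product serves the IL-3 receptor, so the ratio to Csf2ra is not one of GM-CSF receptor chains alone. The ranges of the 3 groups did not overlap for the ratio of the beta chain sum to Csf2ra. Its highest Vehicle value, in 57098, came with the lowest Csf2ra level. For the ratio of Csf2rb to Csf2rb2 counts the ranges overlapped between all 3 groups.

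**Figure D3:**
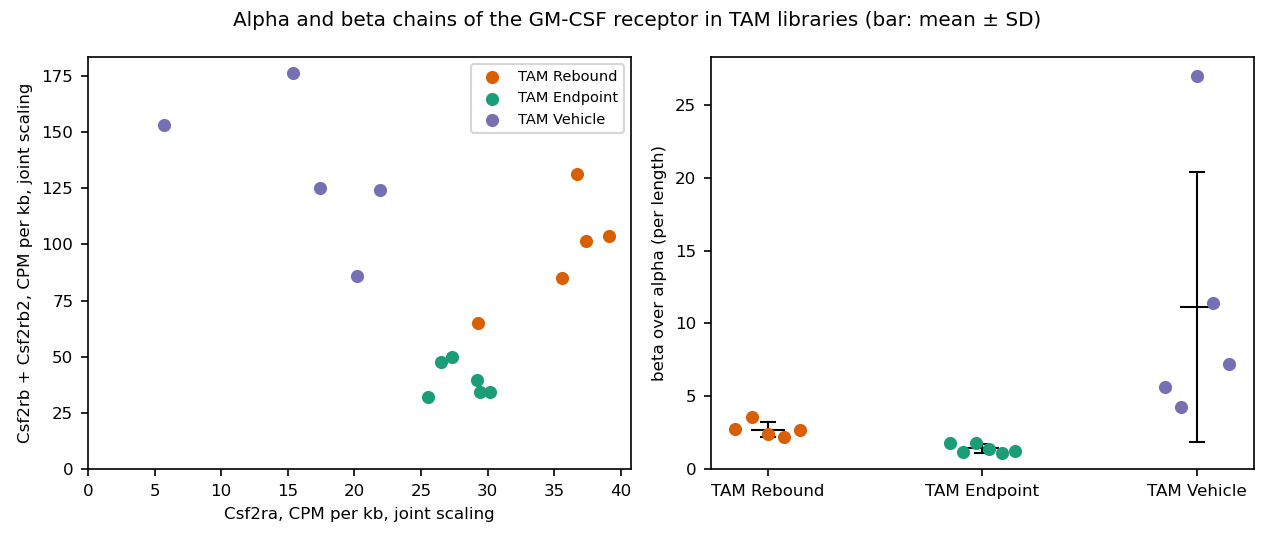
Left, summed level of Csf2rb and Csf2rb2 against that of Csf2ra in the 16 TAM libraries, in CPM per kilobase of exon with both sorts scaled together. Right, the ratio of the beta chain sum to Csf2ra by group, with bars for the mean ± SD. The sum includes Csf2rb2, whose product serves the IL-3 receptor. The Endpoint libraries lie at 1.13 to 1.82, the Rebound libraries at 2.22 to 3.58 and the Vehicle libraries at 4.26 to 27.

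RefSeq promoter windows (GRCm38.p6, 250 bases before to 50 after the start) were examined for 5 of the 8 genes. These genes were Csf1, Csf2, Csf2ra, Csf2rb2 and Csf3r. Promoters of the remaining genes were not examined, so nothing is said of them. The windows of Csf2ra and Csf2rb2 are shown because these chains moved in opposite directions at Endpoint. Capitals mark the letters GAGGAA on either strand, which form part of the motif of the myeloid factor PU.1 and were chosen after the windows had been read. Each of these windows, chr19:61228369-61228668 (minus strand) and chr15:78305672-78305971 (minus strand), held 2 matches, which abut in Csf2ra. Of 27025 promoters of the same length, 28.3% held at least 1 match and 4.84% at least 2. The windows of Csf1 and Csf2 held none and that of Csf3r held 1, and a match describes letters only, so nothing is drawn from these counts.
Csf2ra: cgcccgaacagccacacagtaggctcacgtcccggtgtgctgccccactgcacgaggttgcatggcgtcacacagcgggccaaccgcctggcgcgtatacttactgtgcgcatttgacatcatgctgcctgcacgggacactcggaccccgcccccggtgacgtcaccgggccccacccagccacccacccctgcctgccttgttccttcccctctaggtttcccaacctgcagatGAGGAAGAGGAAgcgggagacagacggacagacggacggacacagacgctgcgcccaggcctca
Csf2rb2: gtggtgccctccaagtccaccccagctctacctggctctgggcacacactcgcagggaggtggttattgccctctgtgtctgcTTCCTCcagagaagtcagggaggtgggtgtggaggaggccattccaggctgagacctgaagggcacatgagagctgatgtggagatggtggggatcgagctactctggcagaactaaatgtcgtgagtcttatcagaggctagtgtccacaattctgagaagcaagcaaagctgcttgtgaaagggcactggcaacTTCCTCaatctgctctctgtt

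Csf3r, the receptor for G-CSF (chr4:126024550-126044440, plus strand, protein coding), overlapped between all 3 TAM groups. It had 279.3, 234.3, 547.5, 390.2 and 478.3 CPM in TAM Rebound libraries. It had 291.2 to 705.5 CPM with a median of 410.1 CPM in TAM Endpoint libraries, and 751.1, 464.0, 427.1, 507.3 and 311.4 CPM in TAM Vehicle libraries. The log2 differences were -0.35 for Rebound against Vehicle (SE 0.277, edgeR adjusted p = 0.421), -0.18 for Rebound against Endpoint (SE 0.266, 0.692) and -0.17 for Endpoint against Vehicle (SE 0.265, 0.651). Neutrophil markers summed to 84.6 to 2771.7 CPM in TAM Rebound, 5.34 to 395.5 CPM in TAM Endpoint and 29.3 to 711.8 CPM in TAM Vehicle, with all 10 detected in each.

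When the stage contrasts of TAM libraries were taken from a joint fit of both sorts, in which TAM and TC libraries share 1 estimate of spread, several calls were lost. The log2 differences stayed close to those above while their standard errors were larger. Csf1r was at -1.37 in Rebound against Vehicle (SE 0.671, edgeR adjusted p = 0.226), -0.64 in Rebound against Endpoint (SE 0.637, 0.604) and -0.73 in Endpoint against Vehicle (SE 0.629, 0.449). Csf2ra was at 1.14 in Rebound against Vehicle (SE 0.434, edgeR adjusted p = 0.107) and 0.80 in Endpoint against Vehicle (SE 0.417, 0.184). Csf2rb was at 1.22 in Rebound against Endpoint (SE 0.698, edgeR adjusted p = 0.303) and -1.60 in Endpoint against Vehicle (SE 0.703, 0.109), and Csf2rb2 was at 1.49 in Rebound against Endpoint (SE 0.677, 0.177). Csf1 stayed called in both of its comparisons with Endpoint, and so did Csf2rb2 in Endpoint against Vehicle.

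In TC libraries Csf1r, Csf2rb and Csf3r were lowest in the 4 Rebound libraries with the lowest myeloid marker sums. Csf2ra was not, with 4.84 to 13.4 CPM in TC Rebound and its lowest value, 2 CPM, in TC Vehicle 54363. Of the 7 genes tested, 0 passed in TC Endpoint against Vehicle, where 28.7% of all genes did (14.0% higher and 14.8% lower); 2 had an unadjusted p under 0.05 and DESeq2 called 2. In TC Rebound against Vehicle 0 passed, against 0.0734% of all genes (0.0400% higher and 0.0334% lower); 2 had an unadjusted p under 0.05 and DESeq2 called 2. In TC Rebound against Endpoint 4 passed, 2 higher (Csf1 and Il34) and 2 lower (Csf1r and Csf3r), against 25.1% of all genes (13.6% higher and 11.5% lower).

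Csf1r had 13.1, 4.48, 5.45, 86.9 and 1.83 CPM in TC Rebound libraries. It had 199.8 to 1449.0 CPM with a median of 305.6 CPM in TC Endpoint libraries, and 207.2, 281.1, 124.5, 31.2 and 165.0 CPM in TC Vehicle libraries. It fell in Rebound relative to Endpoint by 4.54 on the log2 scale (SE 1.02, edgeR adjusted p = 0.00618), with no overlap. The highest Rebound value was in 49827, the library that stood apart, and it alone lay within the Vehicle range. Rebound against Vehicle gave -2.86 (SE 0.957, edgeR adjusted p = 0.195), and -4.70 without TC Rebound 49827 (edgeR adjusted p = 0.00467). Endpoint against Vehicle gave 1.68 (SE 0.889, edgeR adjusted p = 0.169), and its adjusted p was 0.0496 without TC Rebound 49827.

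The myeloid markers in the same TC libraries summed to 217.8, 122.7, 133.5, 2708.2 and 109.2 CPM in Rebound, 1950.1 to 11099.9 CPM in Endpoint and 278.5 to 2257.7 CPM in Vehicle. As a share of the sum in the same mouse's TAM library they came to 0.183 to 4.76% in Rebound (4 mice), 4.43 to 22.2% in Endpoint (6 mice) and 0.421 to 2.77% in Vehicle (5 mice). Csf1r in TC libraries was 0.0269 to 1.14%, 1.96 to 16.6% and 0.251 to 1.86% of its level in the same mouse's TAM library, in the same order of groups. TC Endpoint 49843 had both the highest myeloid marker sum and the highest Csf1r level. The part of these markers in the TC receptor results was not tested.

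Csf3r in TC libraries behaved like Csf1r, with 0.126, 0.354, 1.07, 9.37 and 0 CPM in Rebound. It had 11.8 to 128.8 CPM with a median of 36.4 CPM in Endpoint, and 12.6, 17.7, 6.93, 2.68 and 10.1 CPM in Vehicle. It fell in Rebound relative to Endpoint by 4.50 on the log2 scale (SE 1.19, edgeR adjusted p = 0.0133). Rebound against Vehicle gave -2.23 (SE 1.1, edgeR adjusted p = 0.357), and -4.64 without TC Rebound 49827 (edgeR adjusted p = 0.013). Endpoint against Vehicle gave 2.27 (SE 1.05, edgeR adjusted p = 0.118), and its adjusted p was 0.0286 without TC Rebound 49827.

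Csf2ra, Csf2rb and Csf2rb2 were low in TC libraries, and none passed a stage comparison there in edgeR's fit of TC libraries alone. Csf2ra had 4.84 to 13.4 CPM in Rebound, 9.59 to 56.7 CPM in Endpoint and 2 to 14.7 CPM in Vehicle. Per 100 CPM of myeloid markers Csf2ra had a median of 3.61 CPM in TC Rebound, 0.332 CPM in TC Endpoint and 0.431 CPM in TC Vehicle, which was not tested. Its Endpoint difference from Vehicle was 1.53 (SE 0.574, edgeR adjusted p = 0.0553), with an adjusted p of 0.017 in DESeq2, 0.00815 in the joint fit of both sorts (edgeR), 0.0489 in edgeR with relative log expression scaling and 0.0284 in edgeR without TC Vehicle 64247. Csf2ra in Rebound against Endpoint gave -1.31 (SE 0.57, edgeR adjusted p = 0.101), and its adjusted p was 0.0465 in DESeq2, 0.0204 in the joint fit (edgeR) and 0.0405 in edgeR without the libraries with T and NK cell markers. That last run kept only TC Endpoint 49843 and 49845, and 49843 had the highest Csf2ra level of that group. Csf2rb had 0.427 to 0.881 CPM in 4 Rebound libraries and 18.5 CPM in 49827, 2.78 to 63.1 CPM in Endpoint and 5.09 to 19.8 CPM in Vehicle. Csf2rb in Rebound against Vehicle gave -1.40 (SE 1.04, edgeR adjusted p = 0.563), and -4.21 without TC Rebound 49827 (edgeR adjusted p = 0.0101). In Rebound against Endpoint it gave -2.15 (SE 1.04, edgeR adjusted p = 0.138), and -4.96 without that library (edgeR adjusted p = 0.000573); on all libraries its adjusted p was 0.0481 in DESeq2 and 0.0289 in the joint fit (edgeR). Csf2rb2 in Rebound against Endpoint gave -0.87 (SE 1.06, edgeR adjusted p = 0.559), and -3.88 without it (edgeR adjusted p = 0.00407). The joint fit also called Csf1r in Rebound against Vehicle (-2.90, edgeR adjusted p = 0.0211), and Csf1r and Csf3r in Endpoint against Vehicle (1.66 and 2.25, edgeR adjusted p = 0.0495 and 0.0211).

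**Figure D4:**
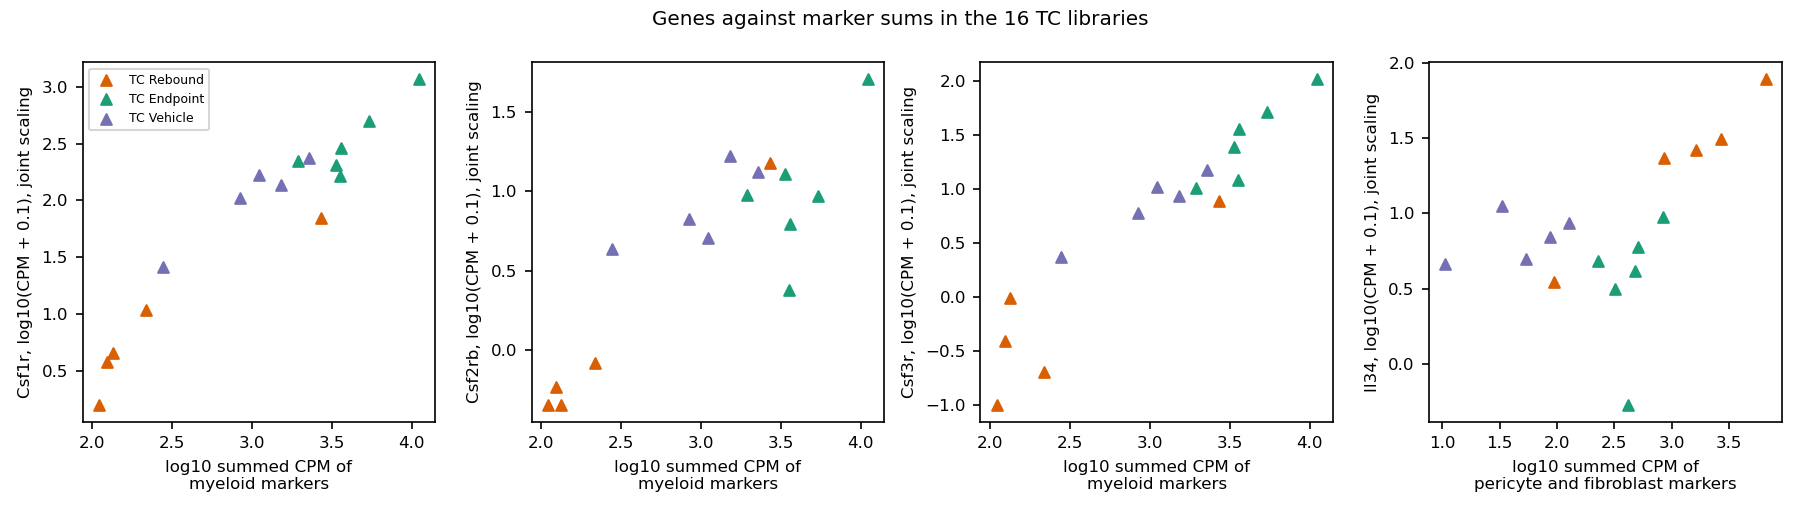
Level of Csf1r, Csf2rb and Csf3r against the summed myeloid markers, and of Il34 against the summed pericyte and fibroblast markers, in the 16 TC libraries, on log10 scales with both sorts scaled together. Rebound, Endpoint and Vehicle libraries are coloured. The 3 receptor genes are lowest in the 4 Rebound libraries with 109.2 to 217.8 CPM of myeloid markers, and Il34 is highest in the 4 Rebound libraries with 854 to 6592.1 CPM of pericyte and fibroblast markers.

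TAM and TC libraries were then compared within each stage in a fit of all 32 libraries, with all 8 genes tested. At Rebound 7 genes passed, 6 higher in TAM and 1 lower, against 47.8% of all genes (20.4% higher and 27.4% lower). At Endpoint 6 passed, 5 higher and 1 lower, against 51.1% (18.7% higher and 32.4% lower). In Vehicle 7 passed, 6 higher and 1 lower, against 54.8% (25.6% higher and 29.2% lower). The median log2 difference of all genes was -0.16 at Rebound, -0.19 at Endpoint and -0.12 in Vehicle. Csf1r was higher in TAM than in TC libraries by 8.22 on the log2 scale at Rebound (edgeR adjusted p = 2e-08), by 4.30 at Endpoint (8.55e-06) and by 6.69 in Vehicle (1.19e-07). Il34 was the gene that was lower in TAM, with log2 differences of -4.08, -3.99 and -3.80 in the same order of stages (edgeR adjusted p = 0.000745, 0.000632 and 0.00127).

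Csf1 was higher in TAM than in TC by 2.16 on the log2 scale at Rebound (SE 0.494, edgeR adjusted p = 0.000634) and by 3.35 in Vehicle (SE 0.518, 3.26e-06). At Endpoint the difference was 0.95 (SE 0.443, edgeR adjusted p = 0.0745), with TAM above TC in 5 of 6 mice. With the mouse as a block it was 1.20 (SE 0.409, edgeR adjusted p = 0.0236). It was 1.45 and 1.20 without TC Endpoint 49823 and 49843 (edgeR adjusted p = 0.0073 and 0.0366), and 1.09 without TAM Vehicle 54359, 54363 or 64247 in turn (0.0239, 0.0464 and 0.0441). Csf2 was not called at any stage, and its Endpoint difference of -2.13 (edgeR adjusted p = 0.32) was -6.10 without TAM Endpoint 49843, which held its only TAM Endpoint counts (0.0494).

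Per kilobase of exon, with both sorts scaled together, the median levels in TAM Rebound ran Csf1r (989.8 CPM per kb), Csf3r (126.7), Csf2rb (69.2), Csf2ra (36.7), Csf1 (33.7), Csf2rb2 (31) and Il34 (1.1). In TAM Endpoint they ran Csf1r (1426), Csf3r (132.4), Csf2ra (28.3), Csf2rb (26.8), Csf2rb2 (10.1), Csf1 (4.22) and Il34 (0.0882). In TAM Vehicle they ran Csf1r (2150.4), Csf3r (158.1), Csf2rb (81), Csf2rb2 (47.9), Csf1 (31.9), Csf2ra (17.4) and Il34 (0.185). Among neighbours in this order, the ranges of Csf3r and Csf2rb overlapped in TAM Rebound, as did those of Csf2ra, Csf1 and Csf2rb2. In TAM Endpoint those of Csf2ra and Csf2rb overlapped. In TAM Vehicle those of Csf3r and Csf2rb overlapped, as did those of Csf2rb2 and Csf1 and those of Csf1 and Csf2ra. Csf2 had a median of 0 in each.

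The stage differences of the 8 genes were also compared between the sorts, as the difference in TAM minus that in TC. The median over all genes was -0.04 for Rebound against Vehicle, 0.15 for Rebound against Endpoint and -0.16 for Endpoint against Vehicle. For Rebound against Vehicle 0 genes passed, against 0.517% of all genes (0.319% higher and 0.198% lower), with 0 at an unadjusted p under 0.05 in edgeR and 0 in DESeq2. Without TC Rebound 49827, 4 passed. For Rebound against Endpoint 4 passed, all higher, against 20.6% of all genes (13.4% higher and 7.18% lower). They were Csf3r (log2 difference 4.39, SE 1.06, edgeR adjusted p = 0.00471), Csf1r (3.92, SE 0.927, 0.00401), Csf2rb (3.4, SE 1.03, 0.0203) and Csf2ra (1.66, SE 0.591, 0.0451). Within each sort, Csf1r differed by -0.66 in TAM and -4.54 in TC libraries, and Csf3r by -0.18 and -4.50. Csf2rb differed by 1.18 and -2.15, and Csf2ra by 0.31 and -1.31. A higher value here is thus not a rise of Csf1r or Csf3r in TAM libraries. The sort difference of Csf2rb was 2.40 without TC Endpoint 49843 (edgeR adjusted p = 0.0598). Csf2ra was close to the threshold. Its value was 1.44 with the mouse as a block (edgeR adjusted p = 0.116), 0.89 without TC Endpoint 49843 (0.186), and 1.56 with no filter on low counts (0.0777). Its adjusted p was also 0.0506 to 0.0886 without any TAM Endpoint library, any TAM Rebound library but 49834, any TC Rebound library but 49827, any TAM Vehicle library but 57098, or TC Endpoint 49830, each left out in turn. Csf2rb2, at 2.39 (SE 1.01, edgeR adjusted p = 0.0923), was at 3.82 with the block (0.0412) and at 5.32 without TC Rebound 49827 (3.25e-06).

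For Endpoint against Vehicle 1 gene passed, against 25.7% of all genes (8.73% higher and 17.0% lower). Csf1 was lower, as its fall at Endpoint was larger in TAM than in TC libraries (log2 difference -2.40, SE 0.655, edgeR adjusted p = 0.00821). Without TAM Vehicle 54359, the library with the highest Csf1, it was -1.59 (edgeR adjusted p = 0.0563). Csf1r, Csf2rb2 and Csf3r had adjusted p-values of 0.0507, 0.0561 and 0.0626 (edgeR). Without TC Rebound 49827 these 3, Csf1 and Csf2rb all passed.

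Genes around these receptors were counted in 4 lists, in TAM libraries first. Of all genes tested there, 7% were higher and 7.73% lower in Rebound against Vehicle, 11.7% and 5.90% in Rebound against Endpoint, and 13.7% and 19.3% in Endpoint against Vehicle, and the counts of each list stand beside these shares. Of 28 genes of proximal CSF-1R signalling, 5 rose and 5 fell in Rebound against Vehicle (median log2 fold change 0.05, against 0.02 over all genes). In Rebound against Endpoint 8 rose and 1 fell (median 0.06, against 0.02), and in Endpoint against Vehicle 5 rose and 12 fell (median -0.25, against -0.03). The Src family kinase gene Fgr averaged 28.9 ± 14.5 CPM in TAM Endpoint and 216.7 ± 59 CPM in TAM Vehicle (SD, n = 6 and 5; log2 difference -2.91, edgeR adjusted p = 3.23e-06), and it rose in Rebound relative to Endpoint by 2.96 (edgeR adjusted p = 1.25e-05). The phosphatase gene Ptpn6, which encodes SHP-1, fell in Endpoint against Vehicle by 1.76 and in Rebound against Vehicle by 0.88 on the log2 scale (edgeR adjusted p = 3.23e-06 and 0.00568). The Src family kinase gene Fyn rose in Rebound against Vehicle by 2.32 (edgeR adjusted p = 0.00114). With both sorts scaled together Fyn averaged 66.1 ± 38.7 CPM in TAM Rebound and 225 ± 48.9 CPM in TC Rebound (SD, n = 5 each). T and NK cell markers summed to 13 to 332.3 CPM in TAM Rebound and 6.99 to 22.1 CPM in TAM Vehicle, myelinating oligodendrocyte markers to 952.3 to 3912 CPM and 464 to 975.9 CPM in the same order, and their part in the Fyn result was not tested. The PI3-kinase subunit genes Pik3ca and Pik3r1 rose in Endpoint against Vehicle by 1.07 and 1.04 (edgeR adjusted p = 0.000231 and 0.000584).

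Of 19 tested genes of the JAK2-STAT5 arm, 6 rose and 0 fell in Rebound against Vehicle (median log2 fold change 0.49). In Rebound against Endpoint 7 rose and 0 fell (median 0.82), and in Endpoint against Vehicle 2 rose and 8 fell (median -0.60). Bcl2l1 averaged 41 ± 12.2 CPM in TAM Endpoint and 389.6 ± 86.9 CPM in TAM Vehicle (SD, n = 6 and 5; log2 difference -3.25, edgeR adjusted p = 3.23e-06). Myc, a growth-promoting transcription factor, averaged 4.97 ± 2.41 CPM in Endpoint and 107.8 ± 35.5 CPM in Vehicle (-4.44, edgeR adjusted p = 3.45e-05). The STAT5-induced gene Cish rose in Rebound against Endpoint by 5.49 (edgeR adjusted p = 0.00113), with means of 36.5 ± 37.8 and 0.802 ± 0.826 CPM. With both sorts scaled together Cish averaged 0.943 ± 0.98 CPM in TAM Endpoint and 112.4 ± 68.9 CPM in TC Endpoint (SD, n = 6 each). T and NK cell markers summed to 13 to 332.3 CPM in TAM Rebound and 10.8 to 38.2 CPM in TAM Endpoint. Their part in the Cish result was not tested. The suppressor of cytokine signalling gene Socs2 rose in both BLZ945 groups relative to Vehicle, by 2.03 at Rebound and 1.48 at Endpoint (edgeR adjusted p = 0.00216 and 0.00382). Jak2 rose in Rebound against Vehicle by 1.40 (edgeR adjusted p = 0.0165).

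Among 11 tested genes of related cytokines and receptors, 2 rose and 1 fell in Rebound against Vehicle, 5 rose in Rebound against Endpoint, and 1 rose and 4 fell in Endpoint against Vehicle (median log2 fold changes 0.72, 1.11 and -1.15). The IL-3 receptor alpha chain gene Il3ra, like Csf2ra a partner of the shared beta chain, averaged 8.44 ± 2.08 CPM in Rebound, 9.29 ± 2.66 CPM in Endpoint and 1.32 ± 0.838 CPM in Vehicle. It rose by 2.67 in Rebound and by 2.81 in Endpoint relative to Vehicle (edgeR adjusted p = 0.00101 and 9.94e-05). Kit, the stem cell factor receptor and a relative of CSF-1R, averaged 66.6 ± 69.8 CPM in Rebound, 0.806 ± 0.488 CPM in Endpoint and 21.2 ± 17.3 CPM in Vehicle. It fell in Endpoint against Vehicle by 4.68 (edgeR adjusted p = 0.000523) and rose in Rebound against Endpoint by 6.33 (0.000249). Ptprz1, a phosphatase that also binds IL-34, rose in Rebound against Vehicle by 2.29 (edgeR adjusted p = 0.00642), in libraries whose summed tumour cell markers were 47.5 to 290.4 CPM in TAM Rebound and 41.9 to 91.9 CPM in TAM Vehicle.

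Of 18 myeloid transcription factors, 2 rose and 2 fell in Rebound against Vehicle, 6 rose and 2 fell in Rebound against Endpoint, and 2 rose and 9 fell in Endpoint against Vehicle (median log2 fold changes -0.03, 0.47 and -0.62). Cebpa, a factor of myeloid differentiation, averaged 87.4 ± 17 CPM in Endpoint and 41.5 ± 24.9 CPM in Vehicle (log2 difference 1.07, edgeR adjusted p = 0.0165), and it fell in Rebound against Endpoint by 1.42 (0.00603). The immediate early gene Egr2 fell in Endpoint against Vehicle by 4.29 and rose in Rebound against Endpoint by 4.42 (edgeR adjusted p = 0.00217 and 0.0039). Sall1, a microglial identity factor, fell in Rebound against Endpoint by 0.99 (edgeR adjusted p = 0.0168), and the immediate early gene Fos rose in Rebound against Vehicle by 4.16 (0.0156). Sfpi1, which encodes PU.1 and is named after its values were seen because of the letters shown above, gave -0.08 in Endpoint against Vehicle (edgeR adjusted p = 0.895).

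In TC libraries no gene of the 4 lists passed in Rebound against Vehicle, where 11 of 14985 genes (0.0734%) did, so nothing about the lists is read from it. Over all genes that comparison had 600 calls in DESeq2 and 586 in edgeR without TC Rebound 49827. In Rebound against Endpoint 2 rose and 7 fell among 28 genes of proximal CSF-1R signalling, 2 rose and 1 fell among 20 of the JAK2-STAT5 arm, 3 rose among 9 related cytokines and receptors, and 2 rose and 5 fell among 18 transcription factors (median log2 fold changes -1.06, -0.63, -1 and -1.30, against -0.04 over all genes, of which 13.6% rose and 11.5% fell). The median of the related cytokines and receptors was thus below 0 although its 3 called genes rose. Among those that fell were the myeloid genes Tyrobp, itself among the 16 myeloid markers (log2 fold change -3.58, edgeR adjusted p = 0.0468), and Sfpi1 (-3.89, 0.0466). The IL-34 binding partners Ptprz1 and Sdc1 rose, by 2.90 and 2.97 (edgeR adjusted p = 0.00177 and 0.00812), in libraries whose tumour cell markers had a median sum of 5100.3 CPM in TC Rebound and 427.4 CPM in TC Endpoint; their part was not tested. In Endpoint against Vehicle 7 rose and 0 fell, 5 rose and 3 fell, 3 rose and 2 fell, and 5 rose and 3 fell in the same order of lists, against 14.0% and 14.8% of all genes, in libraries with more myeloid and fewer tumour cell markers.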

How the data were processed

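RNA from 16 TAM and 16 TC libraries was sequenced after SMART-Seq library preparation as paired reads of 50 bases on an Illumina HiSeq, per the labels' protocols; this kit does not mark strand. The authors deposited 1 table of whole-number read counts for 23337 gene symbols. STAR 2.3.0e, SAMtools and mm10 were used per the submitters' processing notes, and neither a counting program nor an annotation is given in the sources used here. Counts had 1715 genes with none in any library, and 0 sample columns were left unused. Library totals are given with the results; they set the precision of counts, and intervals and floors cover counting error only.

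Stage was compared within each sort with edgeR 4.0.16 (limma 3.58.1, R 4.3.3), using TMM scaling, its filter on low counts and the quasi-likelihood test on all 3 stages of that sort. This tested 13315 genes in TAM and 14985 in TC libraries. TAM was compared with TC, and stage differences between the sorts, in 1 fit of 32 libraries (15668 genes). P-values were adjusted by Benjamini-Hochberg over all genes tested with a threshold of 0.05. Alternatives were DESeq2 1.42.0, relative log expression scaling, no filter, halved BLZ945 counts, each library left out, the joint fit and the mouse as a block. The steps were tested on simulated data. No 2 libraries of a group agreed within sampling noise (lowest chi-square per degree of freedom 21).

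TAM and TC libraries with the same mouse number in the labels come from the same mouse, which sets the pairing of 15 mice. Their deviations from the group means correlated at -0.00105 to 0.438 (median 0.0949). Symbols were matched to GENCODE M21 (20953 of 23337, and all 8 genes) for positions and exon lengths, and Spi1 and Chil3 were found under Sfpi1 and Chi3l3. Besides the 8 genes, the text names from each signalling list up to 2 called genes with the largest rise and 2 with the largest fall per comparison, and the 5 genes with the highest Pearson r of log2 CPM (prior count 2). Not every gene that meets this rule is described, and 1 is not reported here. The genes and lists were chosen with earlier results of these data known. The libraries left out for T and NK cell markers above 50 CPM were chosen after the data were seen. That run kept only TAM Rebound 49827 and 49834 and TC Endpoint 49843 and 49845 of those groups, so its power was lower.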

Additional observations from a re-analysis of the deposited data

Results flagged for a closer look

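Of 38 sets of 5 or 6 values (a gene in a group), 12 had 1 library far from the others. The rule flags about 1 in 20 sets when values are independent and normally distributed. The sets share libraries and CPM need not be normally distributed, so the 12 are not compared with that rate. Sets in which a library had no count were left out. TC Rebound 49827 was high in Csf1r (86.9 CPM, against 1.83 to 13.1 CPM in the others), Csf2rb (18.5 CPM, against 0.427 to 0.881 CPM) and Csf2rb2 (11 CPM, against 0.118 to 0.629 CPM). TC Endpoint 49843 was high in Csf1r (1449 CPM, next 597.5 CPM), Csf2ra (56.7 CPM, next 21 CPM), Csf2rb (63.1 CPM, next 15.5 CPM) and Csf2rb2 (12.2 CPM, next 4.33 CPM). Both libraries had the highest myeloid marker sum of their group, at 2708.2 and 11099.9 CPM, and its part in these values was not tested.

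TAM Endpoint 49843 was high in Csf1 (39.1 CPM, next 19.8 CPM). TAM Vehicle 54359 was high in Csf1r (17410.6 CPM, next 10302.6 CPM) and Csf1 (487.4 CPM, next 189.7 CPM). In mouse 49059, TAM Rebound was low in Csf1r (2913.6 CPM, next 4730.8 CPM) and TC Rebound high in Csf1 (99.4 CPM, next 39.4 CPM).

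In 5 cases the stage difference itself differed between the sorts, as TAM minus TC on the log2 scale (edgeR, adjusted over all genes). These were Csf1 in Endpoint against Vehicle (-2.40, adjusted p = 0.00821) and, in Rebound against Endpoint, Csf1r (3.92, 0.00401), Csf2ra (1.66, 0.0451), Csf2rb (3.4, 0.0203) and Csf3r (4.39, 0.00471). In Rebound against Endpoint Csf1r fell in both sorts, by more in TC, and Csf3r fell in TC without passing in TAM.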

How the results depend on the processing

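Of 40 called results of the 8 genes, 28 stayed called in every alternative run, 12 did not in at least 1, and 0 turned sign; of the 15 stage calls within a sort, 6 stayed called throughout. Counts of genes called that moved by over 1.5 times were as follows. In the joint fit they were 2 in TAM Endpoint against Vehicle, 0 in TAM Rebound against Vehicle, 1 in TAM Rebound against Endpoint, 3 in TC Endpoint against Vehicle and 1 in TC Rebound against Vehicle. DESeq2 called 2, 2 and 3 in TC Endpoint against Vehicle, TC Rebound against Vehicle and the sort difference of Endpoint against Vehicle. Relative log expression scaling called 1 in TC Endpoint against Vehicle, and halved counts 4 in that sort difference. With the T and NK libraries left out, 1 was called in TAM Rebound against Vehicle, 4 in TC Rebound against Vehicle, 7 in TC Rebound against Endpoint, and 5 and 3 in the sort differences of Endpoint and Rebound against Vehicle. In that run TAM Rebound kept only 49827 and 49834, and TC Endpoint only 49843 and 49845. Leaving out 1 library gave 0 to 2 in TC Endpoint against Vehicle, 0 to 4 in TC Rebound against Vehicle, and 0 to 5, 0 to 4 and 2 to 5 in the sort differences of Endpoint against Vehicle, Rebound against Vehicle and Rebound against Endpoint. The causes were not tested.

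With the mouse as a replicate block, the TAM to TC comparisons called 7 genes at each stage and the sort differences 1, 0 and 4. The block added Csf1 at Endpoint (1.20) and, in the sort difference of Rebound against Endpoint, Csf2rb2 (3.82) and removed Csf2ra (1.44); it changed no other call.

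Signs turned in 17 of 90 results, 0 of them called. Leaving out 1 library at a time gave -1.29 to 0.047 for Il34 and -0.36 to 0.042 for Csf3r in TAM Endpoint against Vehicle, -0.66 to 0.20 for Csf1 in TAM Rebound against Vehicle and -0.36 to 0.0081 for Csf3r in TAM Rebound against Endpoint. In TC it gave -0.18 to 1.08 for Csf2rb in Endpoint against Vehicle, and -0.043 to 0.69 for Csf2ra and -3.28 to 0.22 for Csf2rb2 in Rebound against Vehicle. Between TAM and TC at Rebound it gave -1.47 to 3.45 for Csf2. In the sort differences it gave -0.76 to 0.71 for Il34, -3.30 to 2.86 for Csf2 and -1.17 to 0.088 for Csf2ra in Endpoint against Vehicle, -0.59 to 0.46 for Il34, -0.19 to 6.26 for Csf2 and -0.69 to 2.73 for Csf2rb2 in Rebound against Vehicle, and -0.42 to 0.53 for Il34 in Rebound against Endpoint. With the block, Csf2 between TAM and TC at Rebound was 1.80, the sort differences of Endpoint against Vehicle were 0.036 for Il34 and -2.13 for Csf2, and that of Rebound against Vehicle was 1.20 for Csf2rb2. With the T and NK libraries left out, Csf3r in TAM Rebound against Endpoint was 0.11, Csf2ra in TC Rebound against Vehicle -0.044, and Csf2 between TAM and TC at Endpoint 4.06. The sort differences were then 0.58 for Il34 in Endpoint against Vehicle, 2.34 for Csf2rb2 in Rebound against Vehicle and -6.16 for Csf2 in Rebound against Endpoint.

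Over all genes, the T and NK choice gave 525 calls in TAM Rebound against Vehicle (main 1961), 592 in TAM Rebound against Endpoint (2337), 1124 in TC Endpoint against Vehicle (4305), 320 in TC Rebound against Vehicle (11), and 2407, 293 and 2084 in the sort differences of Endpoint against Vehicle, Rebound against Vehicle and Rebound against Endpoint (4025, 81 and 3225). The joint fit gave 1094, 1416 and 670 in TAM Rebound against Vehicle, TAM Rebound against Endpoint and TC Rebound against Vehicle. In TC Rebound against Vehicle DESeq2 called 600, halved counts 25 and single libraries left out 0 to 586, the highest without TC Rebound 49827. In the sort difference of Rebound against Vehicle DESeq2 called 374, the block 4 and single libraries left out 36 to 605, the highest again without TC Rebound 49827. Depth limits Csf2 and, in TAM libraries, Il34.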
